A study of Sus scrofa with 10 samples.

Results

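The transcripts of 10 genes known from the photoreceptors of the eye (RCVRN, GNB3, GNGT1, AIPL1, PRPH2, TULP1, RAX2, CRX, NRL and NR2E3) were followed through 10 single-cell and single-nucleus RNA libraries of the pig brain. The genes were chosen by name and all 10 were found among the 22452 genes of the count tables. The tissue was dissected as medial entorhinal cortex (MEC), the cortical region studied for its spatially tuned neurons. Whole cells were taken from fresh, papain-digested tissue at embryonic day 50 (E50_1, pooled from 3 brains), day 60 (E60_1 and E60_2 from 1 brain each, E60_3 from 2) and day 70 (E70_1 from 2 brains, E70_2 and E70_3 from 1 each), and from 1 adult brain (Adult_1). Nuclei were sorted from snap-frozen tissue of 1 E70 brain (E70_nc) and 1 adult brain (Adult_nc). No treatment or genotype set the groups apart, the adult tissue came from sows and the fetuses were crossbred. The numbers of brains are those in the sample labels, and the study's own list gives those of E70_1 and E70_3 the other way round. The labels do not name the animals, so p-values between libraries measure only the spread between these libraries.

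Photoreceptors detect light in an outer segment packed with membrane discs. There, a light-activated receptor switches on a G protein, which leads to the closing of cation channels. Rods and cones use related sets of these proteins, and the cells of the pineal gland, which makes melatonin, share part of the set. The cerebral cortex is not known as a site where these cells form. Among the 10 genes, RCVRN encodes recoverin, a calcium sensor of the light response. GNB3 and GNGT1 encode a beta and a gamma subunit of the G proteins transducin. AIPL1 is a chaperone of the photoreceptor phosphodiesterase, PRPH2 shapes the rim of the outer segment disc, and TULP1 serves protein transport in photoreceptors. RAX2, CRX, NRL and NR2E3 are transcription factors of photoreceptor development, of which NRL and NR2E3 are known for the rod fate.

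The libraries held 28229 cells or nuclei. The total of unique molecular identifiers (UMIs, counted molecules) was between 2336865 in Adult_nc and 55755512 in E50_1, and E70_1 was the smallest library by cells, with 493. Levels are given as CPM, the UMIs of a gene per 1000000 UMIs of the library or group of cells, with exact Poisson 95% confidence intervals (CI). Shares of cells have exact Clopper-Pearson 95% CI. Both cover counting error only. The pairs of libraries shared at most 57 cell barcodes. Each of the 5 cells with 3 or more of the genes whose barcode recurred had 0 UMIs of these genes under the same barcode in the other library. EMX1, which marks cells of the dorsal telencephalon, was at 0.482 and 0.511 CPM in E60_1 and E60_2 and at 2.48 to 40.6 CPM in the other 8 libraries, and TBR1 had 1 UMI each in E60_1 and E60_2. The cortical origin named in the labels therefore had little marker signal in these E60 libraries.

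In the pig reference genome Sscrofa11.1, RefSeq places RCVRN on chromosome 12 from 54740642 to 54752291 on the minus strand and AIPL1 on the same chromosome from 50903358 to 50917187 on the plus strand. TULP1 (31362670 to 31379948), PRPH2 (37788547 to 37805142) and NRL (75199048 to 75211655) are on chromosome 7. NR2E3 is on chromosome 1 from 169358662 to 169373175, RAX2 on chromosome 2 from 74921553 to 74924834, GNB3 on chromosome 5 from 63863656 to 63871352 and CRX on chromosome 6 from 53506410 to 53509858. GNGT1 has a model of 314100 bases on chromosome 9, from 73403647 to 73717746, with TFPI2 inside it on the opposite strand. Reads were counted over introns as well as exons, so a gene inside or beside another could share its signal. The study counted on the gene models of Ensembl, while the models and overlaps given here are those of RefSeq. Whether the same overlaps were in the models used for counting was not checked. RAX2 overlaps MATK by 84 bases on the same strand, RCVRN overlaps GLP2R by 6697 bases and NR2E3 overlaps MYO9A by 3148 bases, both on opposite strands. The counting by strand was not given in the sources used here.

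The 250 bases before the most upstream annotated start of each gene were searched on both strands. GNB3 had 4 annotated starts and AIPL1 had 2, and their further starts were not searched. The letters sought were TAATCC, the core of the binding motif of CRX and OTX2 as known from the literature. These letters were found in 1 of the 10 windows, that of NR2E3, and in 1054 of the windows of all 19553 protein-coding genes (5.39%). The match in NR2E3 began 24 bases before the start, as the reverse complement GGATTA. The window of NR2E3 is shown because it holds this match, and that of RCVRN because the levels of the other genes are compared with RCVRN. Capitals mark the match, and both windows are in the direction of transcription, NR2E3 at chr1:169358412-169358661 (plus strand) and RCVRN at chr12:54752292-54752541 (minus strand), from RefSeq on Sscrofa11.1.
NR2E3: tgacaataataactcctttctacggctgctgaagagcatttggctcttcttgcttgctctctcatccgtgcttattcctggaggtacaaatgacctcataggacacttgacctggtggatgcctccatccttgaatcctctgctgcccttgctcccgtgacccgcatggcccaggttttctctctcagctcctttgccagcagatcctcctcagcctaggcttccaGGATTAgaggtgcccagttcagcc
RCVRN: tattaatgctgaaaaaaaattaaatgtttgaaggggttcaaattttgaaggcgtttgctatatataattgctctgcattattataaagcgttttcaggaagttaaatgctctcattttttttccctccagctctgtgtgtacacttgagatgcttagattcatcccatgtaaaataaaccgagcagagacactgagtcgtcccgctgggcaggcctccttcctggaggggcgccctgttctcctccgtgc
A match, or its lack, in these letters says nothing about the binding of a factor.

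In each of the 10 genes, the library with the highest level was E70_1. RCVRN was at 74.6 CPM (CI 68.0 to 81.6) there, followed by 10.2 CPM (CI 9.05 to 11.5) in E70_3. It was at 5.14 CPM in Adult_nc, 2.62 in E50_1, 2.59 in E70_nc and 2.34 in Adult_1, and between 0.432 and 0.863 in E70_2, E60_1, E60_3 and E60_2. The level in E70_2 was close to the E60 libraries, although E70_2 was of the same stage as E70_1 and E70_3. The Adult_nc value rested on 12 UMIs and that of E70_nc on 8, so the order within the middle group was not resolved by counting.

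GNB3 followed with 68.7 CPM (CI 62.4 to 75.5) in E70_1, 12.7 in E70_3 and 4.50 in E50_1. The 7 other libraries lay between 0.647 and 2.45 CPM. PRPH2 was at 45.3 CPM in E70_1, 12.6 times its level in E70_3 (3.59 CPM), and at 0.0786 to 2.57 CPM in the other 8. TULP1 was at 23.4 CPM in E70_1, 8.56 in Adult_nc (20 UMIs), 6.57 in E70_3 and 5.50 in E70_nc (17 UMIs). The second place of the nuclei was seen for TULP1, GNGT1, NRL and NR2E3, on 2 to 20 UMIs of each gene.

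GNGT1 and AIPL1 were spread more evenly. GNGT1 was at 14.4 CPM in E70_1 and at 0.805 to 5.14 CPM in the other 9 libraries. AIPL1 was at 11.4 CPM in E70_1, then at 3.32 CPM in E50_1, 3.05 in E70_3 and 3.02 in E70_2. Of all UMIs of a gene, the share in E50_1, E70_1 and E70_3 together was 58.3% for GNGT1 and 67.7% for AIPL1, against 85.7% to 89.4% for RCVRN, GNB3, PRPH2 and RAX2.

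The transcription factors were counted less. RAX2 was at 19.96 CPM in E70_1, 4.02 in E70_3 and 2.16 in E70_2, and had 0 UMIs in E60_3 and in E70_nc. NR2E3 had 109 UMIs in all, of which 84 were in E70_1 (13.3 CPM), and 0 in E60_3. NRL had 86 UMIs, with the highest level in E70_1 at 1.74 CPM (CI 0.87 to 3.12) and the next in E70_nc at 1.29 CPM from 4 UMIs. CRX had 19 UMIs in all, 10 in E70_1, 7 in E70_3 and 2 in E50_1, and 0 in each of the other 7 libraries. In these 7 the upper CI limit of CRX was between 0.0846 CPM in E60_1, the deepest, and 1.58 CPM in Adult_nc, the shallowest.

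**Figure D1:**
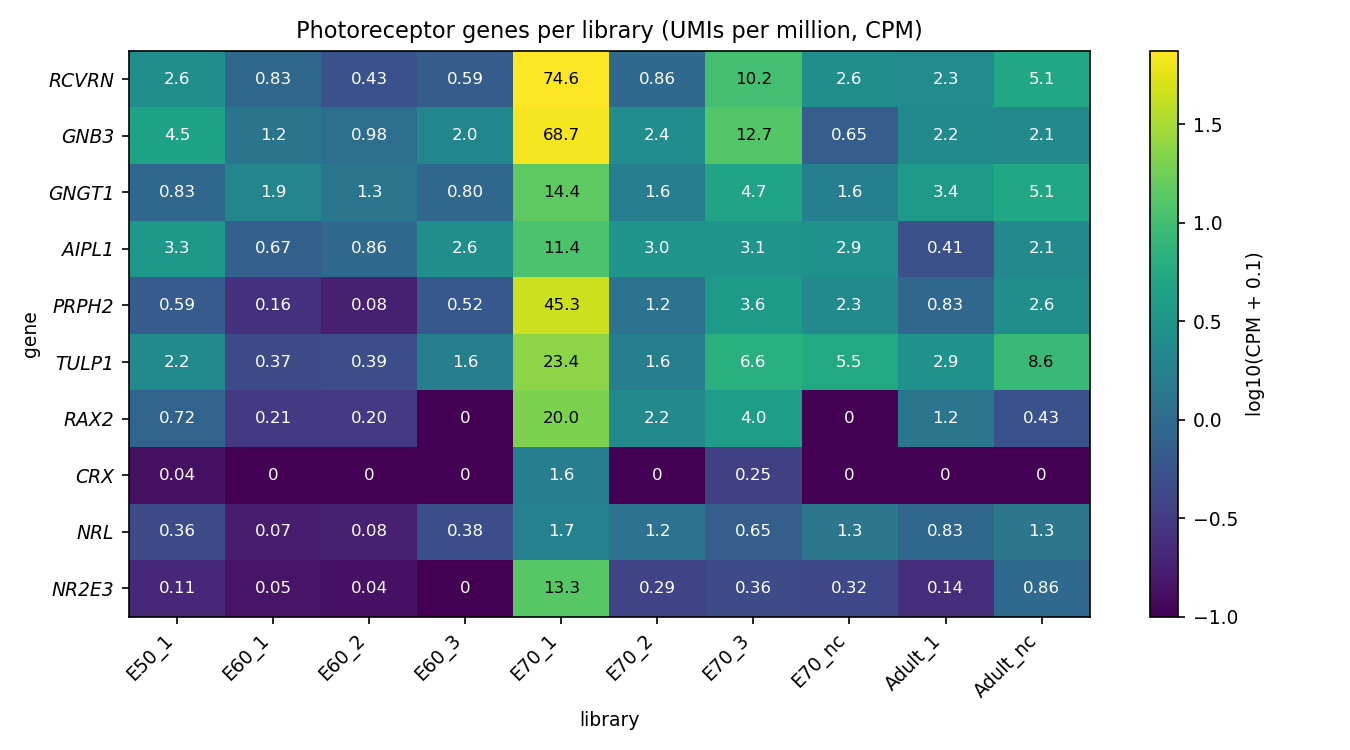
Levels of the 10 genes (rows) in the 10 libraries (columns) in CPM, printed in each field and coloured on the scale of log10(CPM + 0.1); 0 marks libraries with no UMI. The E70_1 column holds the highest value of every row, 74.6 CPM for RCVRN, and CRX is at 0 in 7 libraries.

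E60 and E70 whole cells were the stages with replicate libraries (3 each), and their summed counts were compared over 16743 genes. No gene passed an adjusted p of 0.05 with edgeR's quasi-likelihood test and Benjamini-Hochberg adjustment (0 genes, 0%), while 4916 had an unadjusted p under 0.05. DESeq2 called 2850 genes at the same threshold. Of the 10 genes, 8 passed the filter on low counts and CRX and NR2E3 did not. The log2 fold changes of the 8 were all positive at E70, from 1.90 ± 0.70 (SE, n = 3 libraries each) for AIPL1 to 5.79 ± 1.42 for PRPH2, with a median of 3.83 against -0.06 over all genes tested. Their adjusted p was between 0.122 and 0.141 with edgeR and at most 0.0416 with DESeq2. DESeq2 was run with its cutoff for outlying counts switched off, and the part of this setting in its calls was not tested. RAX2 (9, 5 and 0 UMIs in E60_1, E60_2 and E60_3), NRL (3, 2 and 11) and PRPH2 (7, 2 and 15) had few UMIs at E60. They passed the filter through the E70 libraries, so a positive fold change was favoured for them in advance. These 8 are also not all of the genes. The shared direction, the median, the adjusted p-values of RAX2, NRL and PRPH2 and the count that follows are therefore a description. In 7 of the 8, each E70 library was above each E60 library, which 14.9% of all tested genes did, and GNGT1 was the exception, with 1.93 CPM in E60_1 and 1.58 CPM in E70_2.

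The gap between the stages was narrow where the libraries were closest. RCVRN was at 0.826, 0.432 and 0.595 CPM in E60_1, E60_2 and E60_3 and at 74.6, 0.863 and 10.2 CPM in E70_1, E70_2 and E70_3. The lowest E70 library was 1.05 times the highest E60 library for RCVRN, 1.01 times for TULP1 and 10.5 times for RAX2. Without E70_1 the log2 fold change of RCVRN was 3.02 in place of 5.22. The number of genes called was 5902 without E60_3, 6 of the 8 genes among them, and 1570 without E70_3, with PRPH2 and RAX2 among them. As RAX2, NRL and PRPH2 passed the filter through the E70 libraries, their calls here are a description. Within pairs of libraries sequenced in the same pool, as read from the library numbers of the study and not from the sample labels, RCVRN was at 0.826 CPM in E60_1 and 74.6 in E70_1, and at 0.595 CPM in E60_3 and 10.2 in E70_3. E70_2 shared no pool with an E60 library. It was pooled with E50_1, and RCVRN was at 2.62 CPM in E50_1 and 0.863 in E70_2, lower at the later stage. In sums over whole libraries, fewer cells of a type and less RNA per cell cannot be told apart, and the part of the low EMX1 levels of E60_1 and E60_2 in the comparison was not tested.

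Cells with at least 1 UMI of 3 or more of the 10 genes, called holding cells here, were few and were concentrated in 3 libraries. E70_1 held 28 of 493 cells (5.68%, CI 3.81 to 8.10), E70_3 held 53 of 3120 (1.70%, CI 1.27 to 2.22) and E50_1 held 34 of 5506 (0.618%, CI 0.428 to 0.862). These were 115 of all 122 holding cells (94.3%). E60_1 held 3 and Adult_1 held 4, each with a single UMI per gene. In E60_2, E60_3, E70_2, E70_nc and Adult_nc there were 0. Taken as 3 counts of the total, this allows shares of up to 0.0862%, 0.111%, 0.486%, 0.35% and 0.118%, and the exact CI reach 0.106%, 0.137%, 0.596%, 0.429% and 0.144%. The nuclei had medians of 2616 (E70_nc) and 690 (Adult_nc) UMIs.

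The number of genes per holding cell reached 10 of 10 in a cell of E70_1, 9 in E70_3 and 6 in E50_1. Just outside the limit, 20, 15 and 20 cells of E70_1, E70_3 and E50_1 had exactly 2 of the genes. Just inside it, 5, 7 and 10 cells had exactly 3. In the other 7 libraries the maximum was 4 genes, in E60_1 and in Adult_1, and 2 in the remaining 5. The holding cells, which these genes defined, carried 89.3% of the UMIs of the 10 genes in E70_1, 78.0% in E70_3 and 44.1% in E50_1. Of all UMIs of these libraries they carried 20.7%, 2.18% and 0.58%. Outside them the 10 genes summed to 37.2 CPM in E70_1, 10.4 in E70_3 and 8.59 in E50_1, against 4.32 to 28.2 CPM in the whole of the 5 libraries that had no holding cell.

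**Figure D2:**
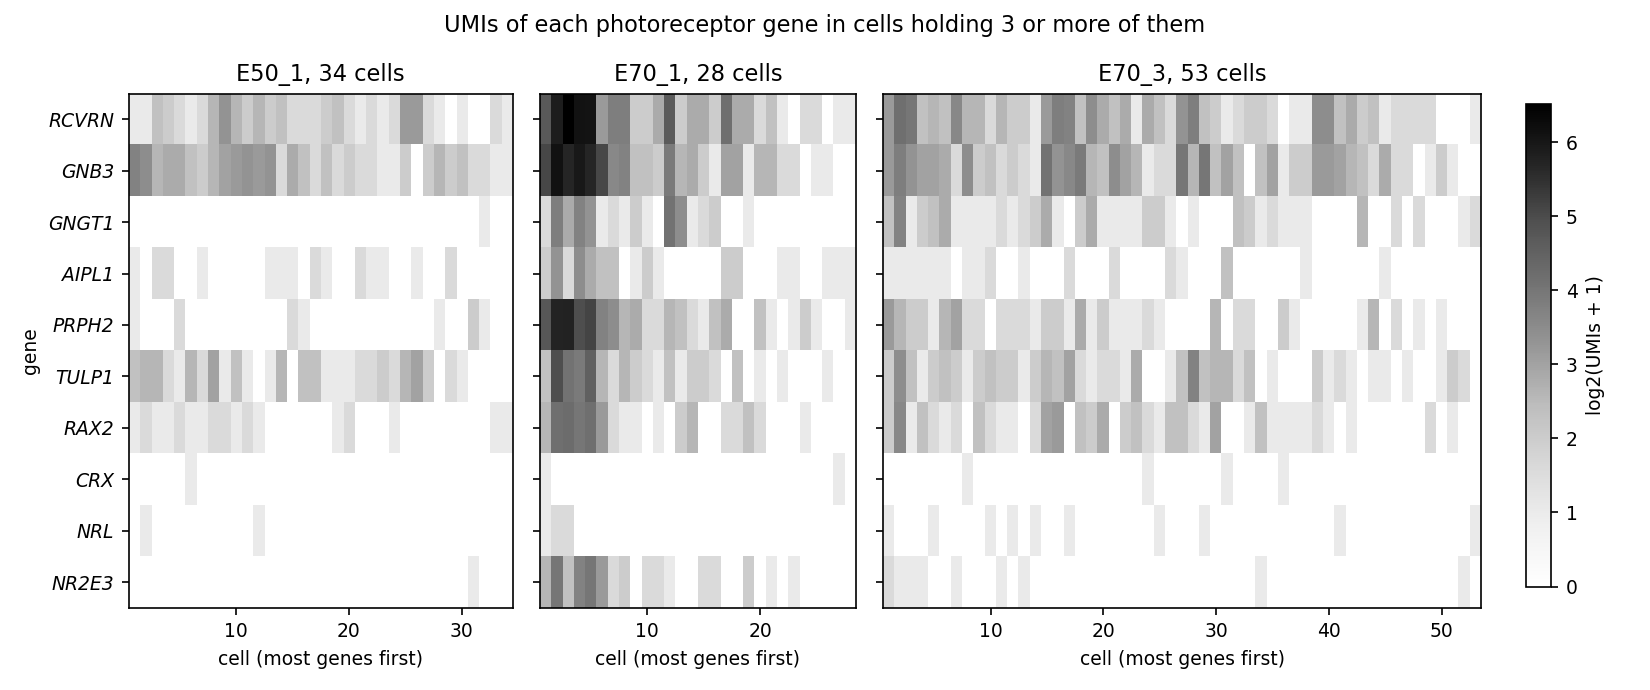
UMIs of each of the 10 genes (rows) in each holding cell (columns) of E50_1 (34 cells), E70_1 (28) and E70_3 (53), as log2(UMIs + 1), with cells ordered by the number of genes held. RCVRN and GNB3 fill most columns of all 3 panels, GNGT1 and NR2E3 are nearly blank in E50_1, and CRX and NRL are sparse throughout.

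Depth per cell differed for these cells. The median number of UMIs was 14153.5 in the holding cells of E70_1 against 9239 in the other cells, 9512 against 6807 in E70_3 and 8906.5 against 8467.5 in E50_1. Above 2 times the median of the library were 13, 14 and 2 holding cells of E70_1, E70_3 and E50_1, and 1 cell of E70_1 had 230571 UMIs. When all cells were thinned to 1000 UMIs, 9, 9 and 5 holding cells remained in E70_1, E70_3 and E50_1, and 0 in the other 7 libraries. When a gene was counted only from 2 UMIs, 20, 40 and 19 remained, and again 0 elsewhere. Thinning left out 1962 nuclei of Adult_nc and 25 of E70_nc, and the 833 nuclei of E70_nc that were kept gave 0 at the depth at which whole cells of E70_1 and E70_3 gave 1.83% and 0.288%. In E70_1 the 13 deep holding cells carried 92.4% of all UMIs of the holding cells, in E70_3 the 14 carried 48.5% and in E50_1 the 2 carried 11.8%. The 5 cells with the most RCVRN carried 309 of its 471 UMIs in E70_1. Sums over the holding cells of E70_1 were thus mostly those of a few cells, and without the deep cells RCVRN was at 905 CPM there in place of 335.

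To ask how each gene was shared without the gene itself choosing the cells, its detection was read in cells that held at least 3 of the other 9. RCVRN was detected in 22 of 24 such cells in E70_1 (91.7%, CI 73.0 to 99.0), in 45 of 49 in E70_3 (91.8%) and in 24 of 27 in E50_1 (88.9%). Outside these cells it was detected in 7.04%, 0.847% and 1.11% of cells. GNB3 was detected in 88.5%, 91.8% and 96.0% of such cells, and TULP1 in 70.4%, 77.6% and 75.9%, in the same order of libraries. These 3 genes were at a similar frequency in all 3 libraries, with overlapping CI. RAX2 was detected in 59.3% and 68.6% of such cells in E70_1 and E70_3 and in 46.9% in E50_1.

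GNGT1 and PRPH2 were detected less often in the E50 library than in either E70 library, and NR2E3 less often than in E70_1. GNGT1 was detected in 16 of 28 cells (57.1%, CI 37.2 to 75.5) in E70_1 and in 35 of 50 (CI 55.4% to 82.1%) in E70_3, but in 0 of 33 in E50_1, for which 3 counts of the total allow a share of up to 9.09% and the exact CI reaches 10.6%. PRPH2 was detected in 80.0% (CI 59.3 to 93.2) and 62.7% (CI 48.1 to 75.9) of cells in E70_1 and E70_3 and in 4 of 31 (12.9%, CI 3.63 to 29.8) in E50_1. NR2E3 was detected in 16 of 28 cells (57.1%) in E70_1, 8 of 52 (15.4%) in E70_3 and 0 of 33 in E50_1. For these 3 genes no E50 interval reached the interval of E70_1, and for GNGT1 and PRPH2 it did not reach that of E70_3 either, while for NR2E3 it overlapped that of E70_3. These intervals are over the cells of 1 E50 library, so the difference has no replicate check and no test was made.

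CRX and NRL were rare where the other genes were frequent. CRX was detected in 1 of 27, 4 of 53 and 1 of 34 such cells of E70_1, E70_3 and E50_1, and 9 of its 10 UMIs in E70_1 were in other cells. NRL was detected in 3 of 28, 9 of 52 and 2 of 34. AIPL1 was detected in 56.0% and 32.1% of such cells in E70_1 and E70_3 and in 37.5% in E50_1. Most AIPL1 UMIs were elsewhere in E70_3 and E50_1, where such cells held 28.2% and 8.65% of them, against 70.8% in E70_1. Over the 3 libraries the share of UMIs in such cells was 83.0% for RCVRN, 84.2% for PRPH2, 87.0% for NR2E3, 81.7% for RAX2 and 75.6% for GNB3, but 26.6% for AIPL1, 31.6% for CRX and 32.7% for NRL. By library such cells held 1 of 10 CRX UMIs in E70_1, 4 of 7 in E70_3 and 1 of 2 in E50_1, and they held 20.6%, 2.18% and 0.58% of all UMIs. CRX and NRL were at 6.58 and 14.9 CPM in such cells of E70_3, against 0.11 and 0.33 CPM in the other cells.

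**Figure D3:**
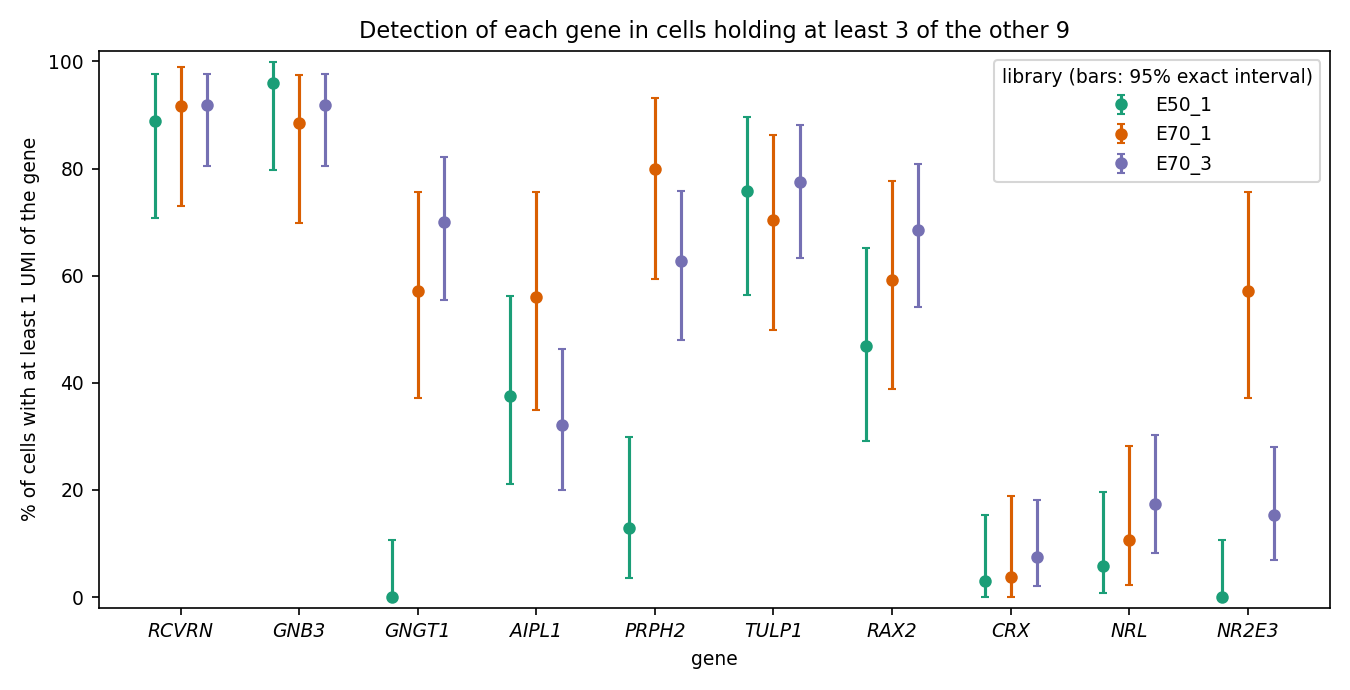
Percentage of cells with at least 1 UMI of each gene, among cells holding at least 3 of the other 9 genes, in E50_1, E70_1 and E70_3, with exact Clopper-Pearson 95% CI. RCVRN, GNB3 and TULP1 lie between 70.4% and 96.0% in all 3 libraries, and GNGT1 and NR2E3 are at 0% in E50_1.

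Microglia-like cells served as a background that should lack photoreceptor genes. RCVRN was detected in 2 of 20 microglia-like cells of E70_1 (10.0%), 2.00% of those of E70_3 and 4.92% of those of E50_1, all far below the shares in cells with 3 or more of the other genes. The median UMIs of the microglia-like cells were 14188, 9815 and 11234.5. GNB3 was detected in 3 of 20 microglia-like cells of E70_1 (10.6 CPM), 0.82% of those of E50_1 and 0 of those of E70_3. At least 1 of the 10 genes was detected in 45% of the microglia-like cells of E70_1. This share was 22.1% in E50_1 and lower still in E70_3, so the background was highest in E70_1. No microglia-like cell of these 3 libraries was a holding cell. GNGT1 differed from RCVRN in this background. Microglia-like cells held 61 of the 84 GNGT1 UMIs in E60_1, 27 of 32 in E60_2, 20 of 46 in E50_1 and 21 of 25 in Adult_1, and the level there was 10.1, 10.0, 13.8 and 13.4 CPM. It was at 12.8 CPM in the microglia-like cells of E70_3, against 159 CPM (CI 128 to 196) in cells with 3 or more of the other genes. Most GNGT1 UMIs of E60_1, E60_2 and Adult_1 were therefore in microglia-like cells. In Adult_1, 11 of the 21 TULP1 UMIs were also in microglia-like cells.

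Each library was then clustered alone, without the 10 genes and without the genes of the marker lists among the variable genes. A single cluster took up most holding cells in each of the 3 libraries, 30 of 34 in a cluster of 154 cells in E50_1 (88.2%), 21 of 28 in a cluster of 32 cells in E70_1 (75.0%) and 40 of 53 in a cluster of 58 cells in E70_3 (75.5%). The 10 genes summed to 279, 1374 and 1725 CPM in these clusters and to 9.02, 41.5 and 14.0 CPM in the rest of E50_1, E70_1 and E70_3. In the other 7 libraries the cluster richest in these genes reached 14.9 to 41.9 CPM. Holding cells made up 19.5% of the E50_1 cluster, 65.6% of that in E70_1 and 69.0% of that in E70_3.

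RCVRN was at 393 CPM (CI 357 to 432) in the E70_1 cluster, 433 (CI 378 to 493) in that of E70_3 and 65.0 (CI 51.8 to 80.4) in that of E50_1, against 7.10, 2.12 and 1.14 CPM in the rest. RCVRN was thus about as high in both E70 clusters, and lower in the larger E50 cluster, where fewer cells held it (18.2% against 75.0% and 69.0%). PRPH2 was at 236, 144 and 8.51 CPM and GNGT1 at 73.4, 157 and 1.55 CPM in the same order. NR2E3 was at 67.9 CPM (CI 53.4 to 85.1) in the E70_1 cluster and 13.4 (CI 5.39 to 27.6) in that of E70_3. These are intervals of counting error in single libraries, and 67 of the 84 NR2E3 UMIs of E70_1 were in the 13 deep holding cells. CRX had 1 UMI in the E70_1 cluster, 4 in E70_3 and 2 in E50_1. AIPL1 was at 17.0 CPM in the E50_1 cluster. It was at 12.3 CPM, with 28 of its 185 UMIs, in another E50_1 cluster of 184 cells. TOP2A, a gene of dividing cells, was among the 10 leading genes of that cluster. In E60_3 a cluster of 138 cells, also led in part by TOP2A, held 18 of 74 AIPL1 UMIs.

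The holding cells outside these clusters were deeper and held fewer of the genes. In E70_1, 7 such cells had a median of 45564 UMIs in all and 4 UMIs of the 10 genes, against 10129 and 26 for the 21 cells inside. In E70_3 the medians were 14006 and 12 for 13 cells outside and 7991.5 and 19 inside. In E50_1 they were 12465 and 6.5 for 4 cells outside and 8864 and 11 inside. The part of doublets, which were not called here, in the cells outside was not tested. Nor was the part of the background seen in microglia-like cells, which was highest in E70_1. SIX6, a factor of eye development, was among the 10 leading genes of all 3 clusters, and PDC, OTX2, ROM1, SAMD7 and CPLX3 were among those of both E70 clusters. SFRP2, a marker of retinal progenitors, was also among the leading genes in E70_1. It was at 380 CPM in the holding cells of E70_1, in 9 of 28 cells that were all among the 13 deep ones, and at 9.88 CPM in those of E70_3.

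Over 176 clusters of at least 20 cells in all libraries, the patterns most like that of RCVRN on the scale of log2(CPM + 1) were those of PDC (Pearson r 0.67), KLC3 (0.65), CPLX3 (0.60), SIX6 (0.57) and ACKR4 (0.57), chosen from 17187 genes. Among the other members r was 0.65 for PRPH2, 0.63 for RAX2, 0.61 for GNB3, 0.56 for TULP1, 0.54 for NR2E3, 0.45 for NRL, 0.42 for GNGT1 and 0.29 for AIPL1. Clusters of a library share its depth and free RNA, and these values are given as a description. PDC encodes phosducin, which binds the beta and gamma subunits of transducin, and CPLX3 is a complexin of the ribbon synapse of the retina.

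The other genes of the holding cells were compared with the remaining cells of the same library, over the summed counts of E50_1, E70_1 and E70_3 with library as a block. Of 14098 genes other than the 10, 336 were higher (2.38%) and 306 were lower (2.17%) with edgeR's quasi-likelihood test and Benjamini-Hochberg adjustment at 0.05, together 4.55%. Of the 336, 333 were higher in 3 of 3 libraries. The count depended on the libraries: it was 10 without E50_1, 363 without E70_3 and 1047 without E70_1, and 0 without the library block. It was 1513 when cells above 2 times the median UMIs were left out. None of the called genes named below reversed its direction in these fits. Without E50_1, PDC, SIX6, SAMD7, SAMD11 and CPLX3 were the only ones of the 67 called genes in the named set that still passed. In the other cells of E50_1, E70_1 and E70_3, PDC had 4, 4 and 6 UMIs and SAMD7 had 9, 7 and 21. Both passed the filter on low counts through the holding cells, so their passing is a description.

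The 10 genes themselves chose the cells and get no test. For scale, RCVRN was at 284, 335 and 416 CPM in the holding cells of E50_1, E70_1 and E70_3 and at 0.974, 6.39 and 1.14 CPM in the other cells. Of the 10, 7 passed the filter on low counts, with GNGT1, CRX and NR2E3 left out. Some genes of the lists below passed it only through the holding cells. PDC was at 0.0722, 0.799 and 0.22 CPM in the other cells of E50_1, E70_1 and E70_3, and RBP3 at 0.0361, 0.599 and 0.0734. GRK1, OPN1SW, ARR3, FSCN2 and BHLHE22, with 0 UMIs in the holding cells, were not tested. The fold changes and calls of genes that passed through the holding cells are therefore a description. The same holds for counts of called among tested list genes and for list medians.

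Genes of the light response moved in part. In the list of rod phototransduction, 10 of 12 genes were found, 4 passed the filter and 3 were higher. These were PDC (log2 fold change 7.42 ± 0.44, SE, n = 3 libraries), SAG (3.30 ± 0.56) and PDE6A (3.08 ± 0.42), which encode phosducin, rod arrestin and a subunit of the rod phosphodiesterase. SAG was at 30.9, 591 and 724 CPM in the holding cells of E50_1, E70_1 and E70_3, against 11.2, 78.5 and 16.6 in the other cells. Without the deep holding cells SAG was at 21.0, 1478 and 990.4 CPM. GNB1, a beta subunit that many cells use, was at 192, 342 and 229 CPM in holding and 245, 164 and 208 CPM in other cells and was not called. CNGA1, a subunit of the rod channel, had 0, 1 and 3 UMIs in these holding cells, and GRK1, a kinase of the rod light response, had 0.

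In the list of cone phototransduction, 8 of 11 genes were found, 5 were tested and 2 were higher. CNGA3, the cone channel subunit, was at 164, 63.4 and 186 CPM in the holding cells of E50_1, E70_1 and E70_3 and at 2.42, 13.0 and 6.09 CPM in the others (log2 fold change 4.24 ± 0.51). PDE6C, the cone phosphodiesterase, was at 121, 21.4 and 44.4 CPM against 0.884, 8.19 and 1.95 (4.15 ± 0.77). OPN1SW, the short-wave cone opsin, and ARR3, the cone arrestin, had 0 UMIs in the holding cells of all 3 libraries. GNAT2, the alpha subunit of cone transducin, had 0, 9 and 7 UMIs and was not called. Thus genes of both the rod and the cone lists were higher in the same pool of cells, while other genes of both lists were at 0 or a few UMIs. Among guanylate cyclases and their regulators, 5 of 6 genes were found, 3 were tested and RD3, a regulator of the cyclase, was higher, with 117, 68.0 and 93.8 CPM against 1.97, 9.59 and 1.58.

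In the list of the outer segment and cilium, all 16 genes were found, 12 were tested and 9 were higher. They were RBP3 (6.54 ± 0.91), ROM1 (4.90 ± 0.50), IMPG1 (3.76 ± 0.56), CDHR1 (3.64 ± 0.36), IMPG2 (3.06 ± 0.36), ABCA4 (2.63 ± 0.30), PROM1 (2.43 ± 0.45), RPGRIP1 (1.90 ± 0.40) and RGS9 (1.63 ± 0.35), all as log2 fold changes. ROM1 is the partner of PRPH2 in the disc rim, and it was at 18.5, 167 and 188 CPM in the holding cells of E50_1, E70_1 and E70_3 and at 1.89, 6.39 and 2.02 CPM in the others. Like PRPH2, it was several times lower in E50_1. IMPG1 and IMPG2 are proteins of the matrix between photoreceptors, and IMPG1 was at 300, 145 and 217 CPM in the holding cells. UNC119 and CRB1 were among those that did not pass the test, and FSCN2 had 0 UMIs in the holding cells.

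**Figure D4:**
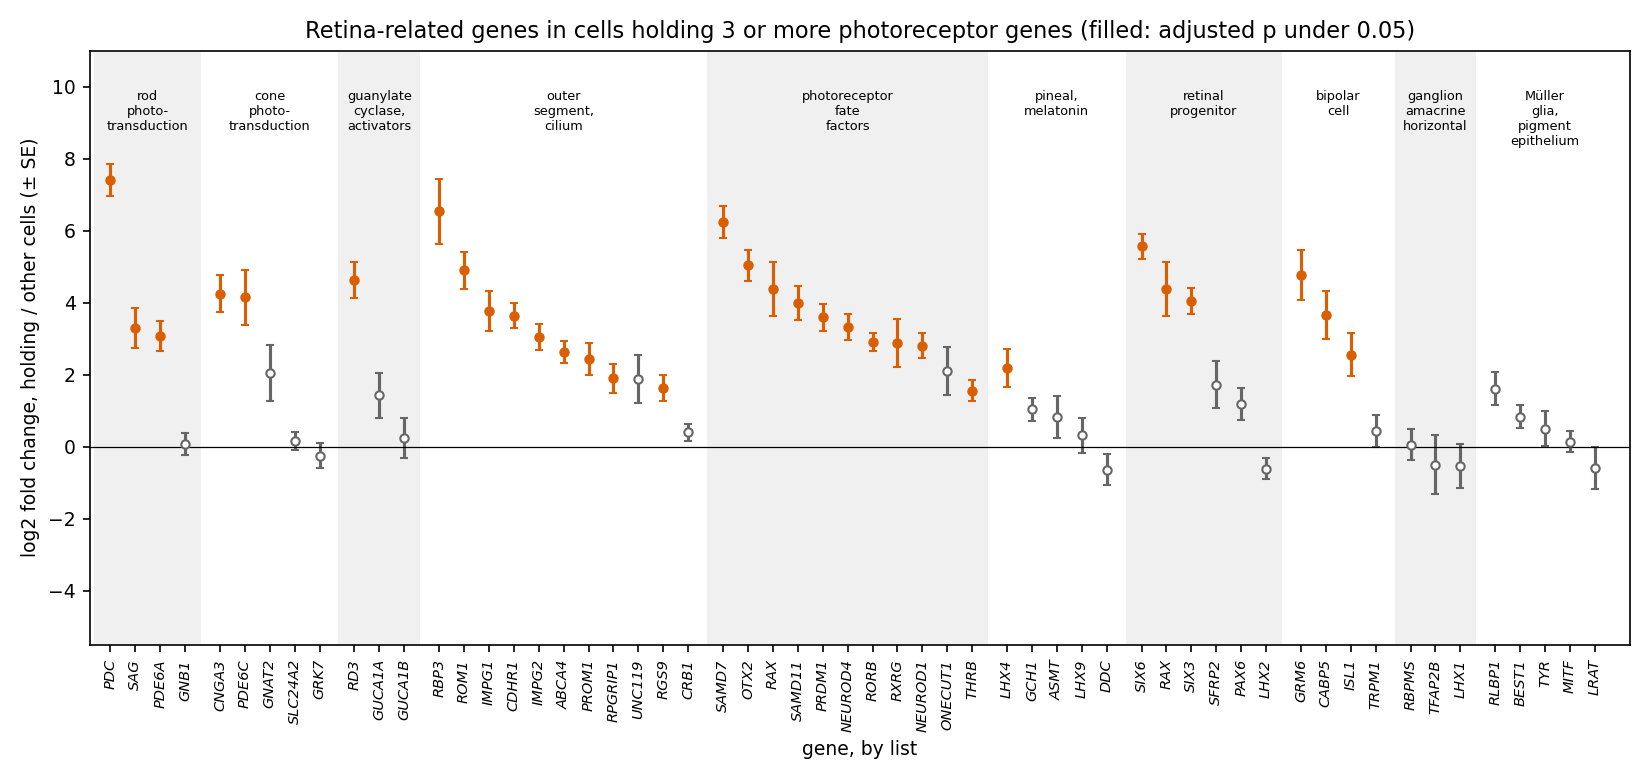
Log2 fold change (holding over other cells) with SE for tested genes of 10 retina-related lists, over the sums of E50_1, E70_1 and E70_3 with library as a block. Filled points passed an adjusted p of 0.05 (edgeR), which 10 of 11 tested fate factors and 0 of 5 genes of Müller glia and pigment epithelium did. Some genes entered the test only through the holding cells.

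Of 13 factors of photoreceptor fate, 11 were tested and 10 were higher. They were SAMD7 (6.24 ± 0.44), OTX2 (5.04 ± 0.43), RAX (4.38 ± 0.74), SAMD11 (3.99 ± 0.46), PRDM1 (3.59 ± 0.37), NEUROD4 (3.33 ± 0.36), RORB (2.91 ± 0.25), RXRG (2.88 ± 0.67), NEUROD1 (2.81 ± 0.34) and THRB (1.55 ± 0.30). OTX2, the homeobox factor known to act before CRX, was even between the libraries, at 148, 154 and 156 CPM in the holding cells of E50_1, E70_1 and E70_3 and at 7.18, 5.59 and 1.39 CPM in the others. RXRG and THRB are nuclear receptors known from cones, and RXRG was at 454 CPM in E50_1 against 77.9 and 184 in E70_1 and E70_3. ONECUT1, known from early retinal precursors, was at 223 CPM (CI 174 to 280) in the holding cells of E50_1 and at 6.11 (CI 2.64 to 12.0) and 6.58 (CI 1.79 to 16.9) CPM in those of E70_1 and E70_3, and it was not called (adjusted p = 0.101). ATOH7 had 0, 1 and 0 UMIs and BHLHE22 had 0.

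The median log2 fold change was 3.19 in the rod list, 2.05 in the cone list, 1.43 in the cyclase list, 2.53 in the outer segment list and 3.33 in the fate list, against -0.12 over all genes tested. The lists were chosen with earlier results of these data known, and these values describe them.

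Genes of the pineal gland and of melatonin synthesis were mostly not called. Of 10 genes, 9 were found, 5 were tested and LHX4, a factor of both pineal gland and retina, was higher (2.18 ± 0.53). ASMT, the last enzyme of melatonin synthesis, was at 6.18, 7.64 and 29.6 CPM in the holding cells of E50_1, E70_1 and E70_3 and at 3.27, 11.8 and 5.21 CPM in the others, and did not pass the test. AANAT, the enzyme before it, had 8 UMIs in 8 of 34 holding cells of E50_1 (24.7 CPM, against 0.505 CPM in the other cells) and 1 UMI each in E70_1 and E70_3, and was not tested. GCH1, an enzyme of the cofactor for serotonin synthesis, was at 114, 51.2 and 34.6 CPM against 22.1, 39.8 and 15.9, higher in 3 of 3 libraries, and did not pass (adjusted p = 0.0939). BSX, PAX4 and ADRB1 had 0 UMIs in the holding cells. The median of this list was 0.82.

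Genes of retinal progenitors were higher in part, 4 of 7 tested. SIX6 (5.56 ± 0.34), RAX and SIX3 (4.04 ± 0.36), homeobox factors of the early eye, were among those that passed, and LHX2, PAX6 and SFRP2 did not. SIX6 was at 309, 74.9 and 161 CPM in the holding cells of E50_1, E70_1 and E70_3 and at 2.89, 2.80 and 3.38 CPM in the others. HMX1 had 0 UMIs in the holding cells. Of the genes of bipolar cells, the retinal neurons after the photoreceptor, 3 of 4 tested were higher, GRM6 (4.77 ± 0.70), CABP5 (3.66 ± 0.67) and ISL1 (2.55 ± 0.60). Of the 9 ISL1 UMIs in the holding cells of E50_1 all were in 1 cell. None of the 3 tested genes of ganglion, amacrine and horizontal cells and none of the 5 of Müller glia and pigment epithelium was called, with medians of -0.50 and 0.50. RLBP1, a retinoid-binding protein of Müller glia, was at 164, 357 and 21.4 CPM in the holding cells against 18.9, 77.3 and 30.8 in the others (1.61 ± 0.46, adjusted p = 0.0671).

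Of the 15 called genes with the largest fold that were higher in every library, PDC, RBP3, SAMD7, SIX6, OTX2 and ROM1 were in the lists above. The other 9 were ACKR4 (6.56 ± 0.55), KLC3 (6.46 ± 0.81), SERPINA1 (5.74 ± 0.67), ENSSSCG00000004269 (5.47 ± 0.96), ENSSSCG00000040295 (5.29 ± 0.48), LRIT2 (5.19 ± 0.95), NRN1L (5.11 ± 0.51), CPLX3 (5.02 ± 0.33) and DEFB128 (4.98 ± 0.69). CPLX3 was at 58.7, 85.6 and 107 CPM in the holding cells of E50_1, E70_1 and E70_3 and at 1.12, 3.996 and 2.24 CPM in the others. LRIT2, a protein of the retina, rested on 3, 5 and 8 UMIs in holding cells. MATK, which overlaps RAX2 in the RefSeq models, was also higher (2.35 ± 0.31), as was TFPI2 inside GNGT1 in these models (2.34 ± 0.58). Their part in the counts of RAX2 and GNGT1 was not tested. GLP2R and MYO9A, the neighbours of RCVRN and NR2E3, were not called, with log2 fold changes of 0.03 ± 0.51 and 0.64 ± 0.25.

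Markers of microglia and of dividing cells were mostly lower in holding cells, and those of other cell types of the tissue in part or not at all. For microglia, 6 of 7 genes were lower, and the 7 genes summed to 21.6, 64.2 and 27.98 CPM in the holding cells of E50_1, E70_1 and E70_3 against 345, 312 and 248 CPM in the others. C1QB (-5.01 ± 0.42) and C1QA (-4.76 ± 0.55), with TYROBP (-5.37 ± 0.60) and FCER1G (-4.90 ± 0.53), were among the 5 called genes with the largest falls, and RGS1 had 0 UMIs in the holding cells, at least 3.66-fold lower than the others when 3 UMIs are taken over all holding cells. The globin genes HBB and HBM were lower (2 of 3 tested), with list sums of 658, 1973 and 8863 CPM in holding and 15826, 21803 and 17904 CPM in other cells, and HBZ was at 0. Lower were also COL1A1 and COL3A1 (2 of 4 vascular genes), OLIG1 (1 of 4 oligodendroglia genes), AQP4 and GFAP (2 of 6 genes of astrocytes and radial glia) and TOP2A and CENPF (both genes of dividing cells). The vascular genes summed to 68.0, 152 and 34.6 CPM in the holding cells of E50_1, E70_1 and E70_3 against 601, 133 and 154 CPM in the others. Those of astrocytes and radial glia summed to 257, 316 and 301 CPM against 437, 272 and 637 CPM. In E70_1 both sums were thus higher in the holding cells. The oligodendroglia list did not move together: its median was 0.03, and MBP was at 192, 9.93 and 14.8 CPM in holding against 12.2, 13.4 and 8.81 CPM in other cells, with its 62 UMIs of E50_1 in 4 cells. CLDN11 was at 74.2, 1.53 and 0 CPM against 15.4, 3.996 and 2.28 CPM, and neither was called. The oligodendroglia genes summed to 328 CPM in the holding cells of E50_1 against 122 in the others, and their part in the result was not tested.

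Neuronal genes were divided. SNAP25, a protein of synaptic vesicle release, was higher (0.84 ± 0.21), with 547, 365 and 642 CPM against 243, 178 and 317, while DCX, STMN2 and TUBB3 were lower. Of the 6 genes of excitatory neurons, SLC17A7, the vesicular glutamate transporter 1, was higher (2.92 ± 0.46), 2 were lower, SLC17A6 (-1.66 ± 0.30) among them, and EMX1, TBR1 and BCL11B were not called. EMX1 was at 9.27, 8.40 and 8.23 CPM in the holding cells and at 40.8, 8.39 and 13.7 CPM in the others. None of 4 interneuron genes was called. Of the 4 genes that mark intermediate progenitors of the cortex, NEUROD1 and NEUROD4, which are also known from photoreceptor precursors, were higher, PAX6 was not called, and EOMES was at 0, 21.4 and 1.65 CPM in the holding cells and at 10.99, 44.6 and 9.84 CPM in the others (adjusted p = 0.0751). The scores of the cell type lists placed the 3 clusters nearest to intermediate progenitors. The lists of the retina were not among those scored.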

How the data were processed

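The deposited tables held UMI counts per gene and cell for 10 libraries of 10x Genomics 3′ RNA-seq, which the authors made with Cell Ranger against the pre-mRNA of Sscrofa11.1, so that introns were counted. Of the gene names, 987 Ensembl identifiers were replaced by symbols. No column lacked a sample. All deposited cells were used and doublets were not called. Counts were summed per library, or per library and cell class, and tested with edgeR 4.0.16 (quasi-likelihood test, TMM, filterByExpr, Benjamini-Hochberg adjustment at 0.05), with DESeq2 1.42.0 as an alternative. The cutoff of DESeq2 for outlying counts was switched off. E60 and E70 whole cells were compared without a block, with 3 libraries each. Holding cells, with UMIs of 3 or more of the 10 genes, were compared with the other cells in the libraries with at least 10 of them, with library as a block and 2 residual degrees of freedom. Clusters were made per library with scanpy 1.11.5 and Leiden (2000 variable genes, 30 components, 15 neighbours, resolution 1). Clusters were called microglia-like from fixed markers. Both tests were run on simulated data with a fixed dispersion and libraries that differed only in their totals. This setting cannot show how the tests perform at the spread of the real libraries. Named were the 10 genes, the called genes of each list and up to 4 others with the highest level, the 15 called genes with the largest fold that were higher in every library, and up to 5 that were lower. Absent list genes and overlapping neighbours were added after their values were seen. The 10 genes and the lists were chosen with earlier results of these data known. GNAT1, CNGB1, OPN1LW, OPN1MW, GNGT2, GUCA1C, TPH1, CLDN5 and MKI67 were not analysed here. Some genes of the lists are counted in the list totals but are not reported here by name.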

Additional observations from a re-analysis of the deposited data

How the results depend on the processing

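The comparison of E60 with E70 gave 0 genes with edgeR under RLE size factors and with no filter on low counts, 2850 with DESeq2, and 0 to 5902 when 1 library was left out, with 5902 without E60_3 and 1570 without E70_3. The replicate numbers did not pair the libraries (correlations of -0.17, 0.03 and -0.13), and with the number as a block 0 genes were called and the log2 fold change of RCVRN was 3.99. The comparison of holding with other cells called 317 genes when 2 or more of the 10 genes were required, 1202 with no filter on low counts, 1513 without cells above 2 times the median UMIs, 0 without the library block, and 10 to 1047 when 1 library was left out. It called 1111 when only holding cells of the richest cluster were used, an alternative chosen after seeing the data. DESeq2 and a limit of 4 genes gave 717 and 874. CENPF and TOP2A turned to log2 fold changes of 0.29 and 0.25 when 2 or more genes were required, and neither passed the test there. Of the 67 called genes in the named set, 58 passed with DESeq2, without COL1A1, GRM6, ISL1, RBP3, RXRG, KLC3, ENSSSCG00000004269, LRIT2 and TFPI2, and 56 passed without E70_3. After thinning to 1000 UMIs the share of holding cells was 0.0908% in E50_1, 1.83% in E70_1, 0.288% in E70_3 and 0% in E60_1 and Adult_1. With 2 or more UMIs of a gene it was 0.345% in E50_1 and 0% in E60_1 and Adult_1. The cause of these changes was not tested. The share of holding cells in the richest cluster was between 64.2% and 88.2% under the other cluster settings. There was 1 library at E50 and 1 of each kind in the adult.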
